A study of Mus musculus with 12 samples.

Results

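The tricarboxylic acid cycle was followed through 9 genes, Cs, Idh3a, Idh3b, Idh3g, Ogdh, Sucla2, Suclg1, Fh1 and Mdh2, which encode citrate synthase and matrix enzymes or enzyme subunits of the later steps. The genes were taken by symbol from this list, which was chosen with earlier results of these data known. All 9 were found among the 26639 features listed for white adipose tissue (WAT) and among the 22851 features listed for cultured adipocytes, and all 9 passed the filter on low counts in both. Messenger RNA had been sequenced in 12 mouse libraries, 3 in each of 4 groups. WAT was taken on day 42 from wild-type (WT) mice and from Xap5 Adiponectin-cKO mice, in which Xap5, the protein encoded by Fam50a, was deleted with Cre. The adiponectin promoter that drives Cre is active in mature adipocytes, so the other cells of the fat pad keep the gene. Adipocytes of WT and KO genotype were sampled on day 8 of differentiation, from pre-adipocytes isolated from subcutaneous WAT of newborn WT or cKO mice and induced with insulin, dexamethasone and IBMX. WAT cKO and WAT WT answer what the deletion does to cycle transcripts in the tissue, and the cultures ask the same of induced cells. Whether the 3 libraries of a group are separate animals or separate cultures is not stated in the labels. The p-values therefore reflect the spread among these libraries, part or all of which may be technical.

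The cycle oxidizes acetyl-CoA in the mitochondrial matrix and hands its electrons to the respiratory chain as NADH and reduced flavin. White adipocytes also draw citrate out of the cycle, through the carrier Slc25a1 and the cytosolic enzyme Acly, as the carbon source of fatty acid synthesis. Oxaloacetate is refilled from pyruvate by pyruvate carboxylase (Pcx), and malate and pyruvate return to the matrix, so that the cycle serves fat synthesis as well as respiration.

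Total counts were 28844370 to 30704234 in WAT WT, 33132906 to 33997204 in WAT cKO, 11601138 to 12401278 in culture WT and 10863158 to 21773610 in culture KO. The 9 genes had between 2105 and 45079 reads in a library. Together they took 0.540% to 0.685% of all counts in WAT WT and 0.240% to 0.446% in WAT cKO, with no overlap. They took 0.302% to 0.338% in culture WT and 0.330% to 0.372% in culture KO, where the ranges overlapped. Fam50a, the targeted gene, stood at 35.3, 32.5 and 36.5 CPM (TMM-scaled counts-per-million) in WAT WT and at 23.3, 16.8 and 28.9 CPM in WAT cKO, and it fell by 0.60 on the log2 scale (SE 0.20, adjusted p = 0.0395, quasi-likelihood test of edgeR). In culture its levels were 57.9, 52.0 and 45.2 CPM in WT against 46.2, 42.9 and 41.1 CPM in KO, a log2 fold change of -0.26 (SE 0.12, adjusted p = 0.134) that did not pass the threshold. The labels do not say which exons were deleted, so reads outside them do not check the genotype. Markers of adipocytes were present in every group: their 13 genes summed to 68829 to 71997 CPM in WAT WT, 11525 to 25893 CPM in WAT cKO, 23653 to 25289 CPM in culture WT and 29696 to 34555 CPM in culture KO.

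Per kilobase of transcript, which allows genes to be compared, the highest of the 9 in WT tissue was Mdh2, mitochondrial malate dehydrogenase, which regenerates oxaloacetate, at 960 ± 173 CPM per kb (SD, n = 3). Idh3g (659 ± 91.6) and Cs (640 ± 43.0) came next, and these neighbours overlapped. Below them lay Idh3b (476 ± 68.2), Ogdh (378 ± 61.1) and Suclg1 (362 ± 22.7 CPM per kb), each overlapping the next. The lowest were Fh1 (187 ± 21.3), Idh3a (150 ± 22.9, the subunit that carries the catalytic site of NAD-dependent isocitrate dehydrogenase) and Sucla2 (106 ± 24.8 CPM per kb), which also overlapped in turn. The order in WT culture began with Mdh2 as well (480 ± 52.4), followed without overlap by Idh3b (300.2 ± 18.4), Idh3g (252 ± 23.6), Cs (213 ± 21.4) and Suclg1 (148 ± 3.91 CPM per kb). Fh1 (106 ± 6.11), Sucla2 (98.7 ± 16.7), Idh3a (93.7 ± 14.7) and Ogdh (82.7 ± 9.87 CPM per kb) made up its lower end and overlapped in turn. Ogdh thus moved from the fifth place in tissue to the last place in culture. The level in WAT WT over that in culture WT was 4.56-fold for Ogdh and 3.01-fold for Cs, between 1.58-fold (Idh3b) and 2.62-fold (Idh3g) for 6 others, and 1.07-fold with overlapping libraries for Sucla2. Tissue and culture cannot be told apart here from table, age and sequencing depth, so these levels are a description with no test.

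Sequence before the start site is shown for 3 genes that fell in tissue, Idh3g, Fh1 and Cs, and for Sucla2, which did not pass there. The promoter table from RefSeq (GRCm38.p6) held 8 of the 9 genes, with Idh3a not matched, in windows of 300 bases that run from 250 bases before the start site to 50 after it. Capitals mark the letters matched by a motif search on both strands, and each line gives the sequence 5′ to 3′ on the strand of the gene, ending at the base before the start site.

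Idh3g, chrX:73786898-73787022, minus strand: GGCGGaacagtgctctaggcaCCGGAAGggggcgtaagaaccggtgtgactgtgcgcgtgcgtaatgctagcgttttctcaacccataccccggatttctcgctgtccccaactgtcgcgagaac

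Fh1, chr1:175625636-175625760, minus strand: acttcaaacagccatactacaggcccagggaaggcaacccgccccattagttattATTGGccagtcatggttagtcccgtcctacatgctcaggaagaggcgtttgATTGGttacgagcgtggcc

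Cs, chr10:128337602-128337726, plus strand: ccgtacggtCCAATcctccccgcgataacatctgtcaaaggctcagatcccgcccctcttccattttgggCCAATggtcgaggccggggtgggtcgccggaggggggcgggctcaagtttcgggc

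Sucla2, chr14:73552756-73552785, plus strand: caactgcgtctctGCGCCTGCGCggtgccc

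The NF-Y box CCAAT, which reads ATTGG on the opposite strand, was found for Cs, Fh1, Idh3b and Ogdh, 4 of the 8 genes. It was in 37.4% of all 32851 windows. A gene counts here if any of its windows matched, and Ogdh had 6 windows, while the percentages are shares of windows. The ETS core CCGGAAG, the site family of GABP, was found for Idh3b and Idh3g, and in 8.86% of windows. The NRF1 site, capitalized above, was found for Sucla2 and in 4.6% of windows. The YY1 site was found for Idh3g, where the printed stretch begins inside it with GGCGG, and in 0.852% of windows. The site of estrogen-related receptors, TNAAGGTCA, was in none of the 8 genes' windows and in 1.28% of all. No motif was shared by the genes as a set, and none of the searched motifs overlaps another within the printed stretches. Idh3g starts at X:73786897 and runs away from Ssr4, a subunit of the translocon-associated protein complex, whose start site at 73787023 lies 126 bases away, so the printed Idh3g stretch is all that separates them. Ssr4 fell by 0.92 on the log2 scale in WAT cKO (SE 0.11, adjusted p = 0.000964), and in culture its log2 fold change was 0.10 (adjusted p = 0.556).

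In WAT of cKO mice 7 of the 9 cycle genes were lower than in WT and none was higher, where 52.4% of the 16293 genes tested were called, 24.2% lower and 28.2% higher. Their mean levels in cKO were 0.201 to 0.663 of those in WT. The log2 fold changes of the 7 ran from -1.49 to -2.31 and were largest in Idh3g and Suclg1. Idh3a and Sucla2 were the exceptions that did not pass the threshold. The median log2 fold change was -1.69 over the 9 genes and 0.12 over all genes tested. With scaling by library size alone these medians were -1.02 and 0.80, the same number passed, and Sucla2, not called, turned to 0.07.

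Cs, citrate synthase (10:128337727-128362482), condenses acetyl-CoA with oxaloacetate and so opens the cycle. It had 1872, 1881 and 1677 CPM in WAT WT and 545, 928 and 462 CPM in WAT cKO. All 3 cKO libraries lay below all 3 WT libraries, and Cs fell by 1.49 (SE 0.28, adjusted p = 0.00439).

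NAD-dependent isocitrate dehydrogenase, which makes alpha-ketoglutarate and is a control point of the cycle, is built from a catalytic subunit (Idh3a, 9:54586511-54604662) and regulatory subunits (Idh3b, 2:130279309-130284451, and Idh3g, X:73778963-73786897). Idh3a had 434, 322 and 365 CPM in WT tissue and 182, 361 and 154 CPM in cKO tissue. Replicate 2 of cKO lay inside the WT range and the other 2 cKO libraries lay well below it, so the groups overlapped. The log2 fold change of Idh3a was -0.69 (SE 0.32, 95% interval -1.44 to 0.07, adjusted p = 0.111). Without cKO replicate 2 it fell by 1.18 (adjusted p = 0.00174), and DESeq2 on all 6 libraries also called it (adjusted p = 0.0440). With library size scaling its value was -0.019 (adjusted p = 0.960), and without any single library other than cKO replicate 2 it lay between -0.47 and -0.78 and was not called (adjusted p from 0.156 to 0.276). Idh3b had 852, 729.9 and 645 CPM in WT and 190.3, 304 and 165 CPM in cKO, with no overlap. It fell by 1.76 (SE 0.26, adjusted p = 0.00179). Idh3g had 913, 914 and 715 CPM in WT and 147, 239 and 126 CPM in cKO, again with every cKO library far under the WT libraries, and fell by 2.31 (SE 0.27, adjusted p = 0.000884).

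Ogdh (11:6291597-6359094) encodes the decarboxylating component of the alpha-ketoglutarate dehydrogenase complex, which makes succinyl-CoA. Its levels were 1665, 1618 and 1230.5 CPM in WAT WT and 345, 529.6 and 309 CPM in WAT cKO. No cKO library came near the WT range, and Ogdh fell by 1.93 (SE 0.26, adjusted p = 0.00129).

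Succinyl-CoA ligase, the step with substrate-level phosphorylation, pairs a common alpha subunit (Suclg1, 6:73248505-73276907) with an ADP-forming beta subunit (Sucla2, 14:73552786-73596144) or a GDP-forming one (Suclg2). Suclg1 had 541, 556 and 496 CPM in WT tissue against 105.5, 174 and 91.4 CPM in cKO tissue. The WT libraries were tightly grouped and the cKO libraries all lay below them, and Suclg1 fell by 2.1 (SE 0.25, adjusted p = 0.000963). Sucla2 had 288, 206 and 189 CPM in WT and 131, 237 and 85.1 CPM in cKO. Replicate 2 of cKO exceeded 2 of the 3 WT libraries, so the groups overlapped. The log2 fold change of Sucla2 was -0.59 (SE 0.36, 95% interval -1.45 to 0.26, adjusted p = 0.205), and without cKO replicate 2 it fell by 1.10 (adjusted p = 0.0131).

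Fh1 (1:175601378-175625635), fumarase, hydrates fumarate to malate, and Mdh2 (5:135778649-135790386) oxidizes malate to close the cycle. Fh1 had 524.5, 486 and 420.3 CPM in WAT WT and 131.5, 209 and 102 CPM in WAT cKO. Mdh2 had 1516, 1456.5 and 1075 CPM in WT and 379.6, 655 and 351 CPM in cKO. Neither gene had a cKO library within the WT range. Fh1 fell by 1.69 (SE 0.27, adjusted p = 0.00240) and Mdh2 by 1.55 (SE 0.29, adjusted p = 0.00407).

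**Figure D1:**
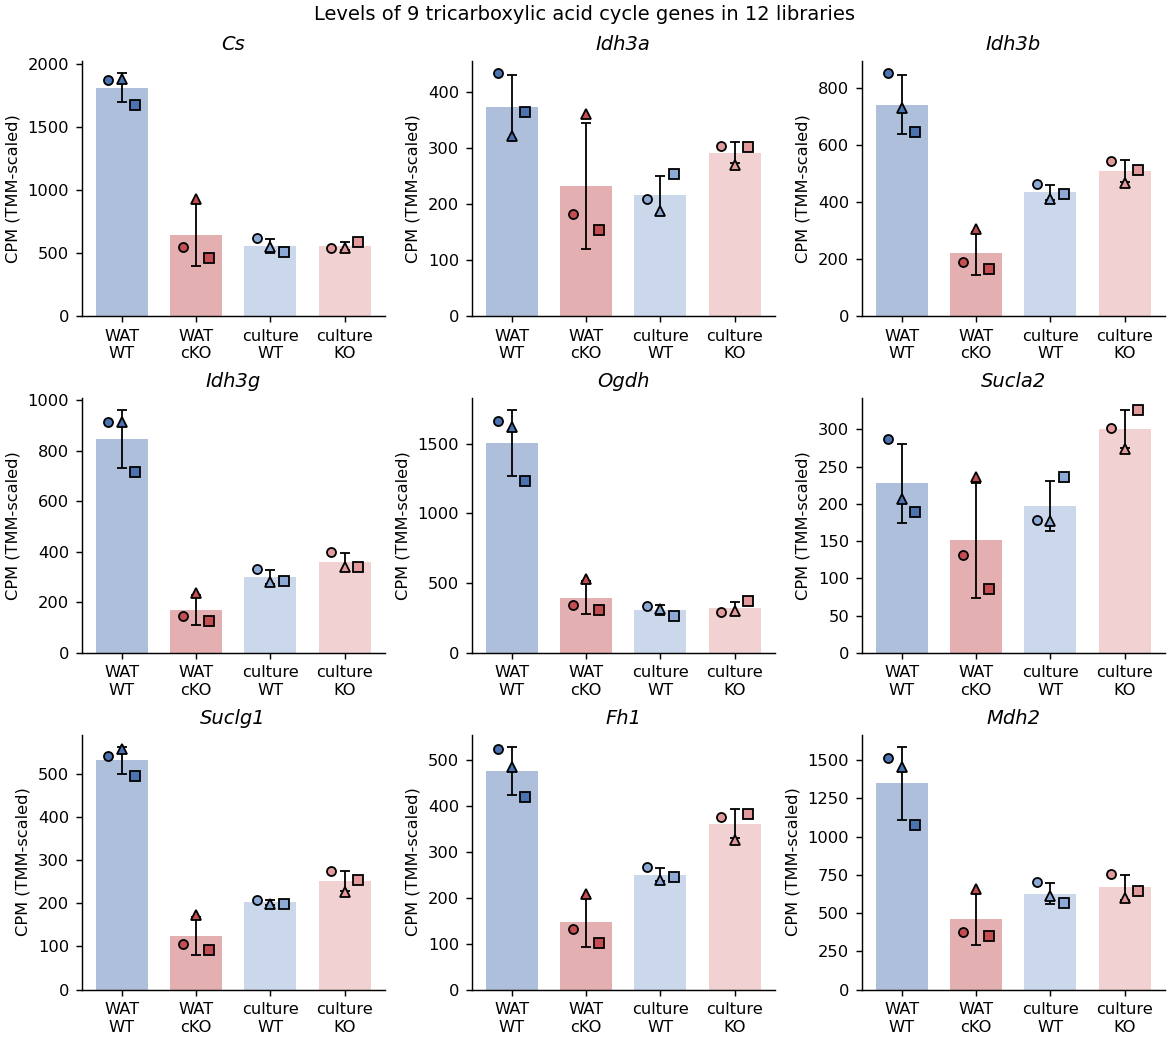
Levels of the 9 cycle genes in CPM scaled by TMM, 1 panel per gene, with bars for group means, error bars for the SD (n = 3) and circles, triangles and squares for replicates 1, 2 and 3. In WAT the cKO points lie below the WT points except for Idh3a and Sucla2, where the triangle of cKO replicate 2 reaches the WT range.

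The cKO tissue libraries differed among themselves in one direction across the genes. Replicate 2 was the highest and replicate 3 the lowest of the cKO libraries for 9 of 9 genes, and the coefficient of variation of a gene was 29.95% to 51.5% in cKO against 5.94% to 23.2% in WT. The same cKO replicate 2 was the highest for 12 of 13 adipocyte markers and the lowest for 10 of 10 macrophage markers, and replicate 3 was the lowest for 12 of 13 adipocyte markers. Replicate 3 was also the lowest for 7 of 7 brown or beige, 7 of 7 endothelial and 10 of 10 muscle markers. It was the lowest for 4 of 10 fibroblast, 0 of 10 macrophage and 0 of 6 epithelial markers.

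Cell type markers changed in both directions in tissue, where 24.2% of all genes tested were lower and 28.2% higher. Adipocyte markers fell in 11 of 13 cases (median log2 fold change -1.65), led by Cfd (-5.02, SE 0.56, adjusted p = 0.000804) and Pnpla2 (-2.68, SE 0.44, adjusted p = 0.00261), a secreted protease and a lipase of fat cells. With library size scaling 9 were lower (median -0.98, and 0.80 over all genes tested) and 1, Lpl, was higher (1.16, adjusted p = 0.0026). Brown or beige adipocyte markers fell in 3 of 7 cases, rose in 1, Dio2 (2.89, adjusted p = 0.0105, and 0.0510 without the length and GC trend; named after its value was seen), had a median of -1.86 and were led by Cidea (-2.92, adjusted p = 0.00865) and Cox8b (-2.56, adjusted p = 0.0124). Their sum was 1134 to 2093 CPM in WT and 75.4 to 502 CPM in cKO. Macrophage markers rose in 9 of 10 cases (median 3.11), led by Msr1 (4.41, adjusted p = 0.000413) and Cd68 (4.30, adjusted p = 0.000476), and summed to 417 to 644 CPM in WT against 1905 to 4151 CPM in cKO. Fibroblast markers rose in 7 of 10 cases (median 1.57), among them Lum (3.05, adjusted p = 0.000772) and Dcn (2.39, adjusted p = 0.000964), and summed to 3179.5 to 3772 CPM in WT and 6449.8 to 9606 CPM in cKO. Endothelial markers fell in 5 of 7 cases (median -0.80). With library size scaling, though, 1 was lower and 1 higher (median -0.12, and 0.80 over all genes tested). Among those that fell were Cldn5 (-1.45, adjusted p = 0.00180) and Cdh5 (-1.07, adjusted p = 0.00624, and 0.132 with library size scaling). The 7 endothelial markers summed to 979.7 to 1387 CPM in WT and 518 to 787 CPM in cKO. In bulk tissue fewer cells of a type and less RNA per cell cannot be told apart, and the part of these markers in the result was not tested.

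Muscle and epithelial RNA marked single libraries. The 10 muscle markers summed to 33.6, 241 and 2077 CPM in WAT WT and to 1552, 276 and 46.8 CPM in WAT cKO, so that WT replicate 3 and cKO replicate 1 stood apart, and 1 of the 10, Myh1, was called higher (5.48, SE 1.74, adjusted p = 0.0324). With both libraries left out, an alternative chosen after seeing the data, 6 of the 9 cycle genes were lower, and Cs, with -1.43, missed the threshold (adjusted p = 0.0611). The 6 epithelial markers summed to 640.3 CPM in cKO replicate 3 and to 2.52 to 28.8 CPM in the other WAT libraries. None of the 4 that could be tested passed, Cdh1 having the smallest p (3.52, adjusted p = 0.0717). Without cKO replicate 3, as without any other single WAT library, 7 to 9 of the 9 cycle genes were lower.

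In culture 4 of the 9 cycle genes were higher in KO than in WT and none was lower, where 19.5% of the 12587 genes tested were called, 8.94% higher and 10.6% lower. Sucla2, Fh1, Idh3a and Suclg1 rose by 0.32 to 0.61 on the log2 scale. The remaining 5, with Cs, Ogdh and Mdh2 nearest to 0, did not pass. The median log2 fold change was 0.26 over the 9 genes and -0.02 over all genes tested. Without WT replicate 2 only Sucla2 and Fh1 of the 4 passed, and a fit with 1 estimate of spread over all 4 groups called none of them (adjusted p from 0.176 to 0.372).

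Sucla2 had 179, 177 and 236 CPM in culture WT and 302, 274 and 325 CPM in culture KO. All KO libraries lay above all WT libraries, and Sucla2 rose by 0.61 (SE 0.12, adjusted p = 0.00150). Its partner Suclg1 had 208, 199 and 199 CPM in WT and 274, 226 and 254 CPM in KO. Again no library overlapped, and Suclg1 rose by 0.32 (SE 0.11, adjusted p = 0.0423). That call was not kept with any single library other than WT replicate 3 left out (adjusted p = 0.0541 to 0.157) or with library size scaling (adjusted p = 0.0926) or without the length and GC trend (adjusted p = 0.0525).

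Fh1 had 267, 239 and 245 CPM in culture WT and 377, 326 and 382 CPM in culture KO. The WT libraries all lay below the KO libraries, and Fh1 rose by 0.53 (SE 0.11, adjusted p = 0.00195). Idh3a had 209, 187 and 254 CPM in WT and 305, 270.3 and 302 CPM in KO. WT replicate 3 came close to KO replicate 2 without overlap. Idh3a rose by 0.43 (SE 0.12, adjusted p = 0.0130), and without WT replicate 2 the call was lost (0.35, adjusted p = 0.118).

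The regulatory subunits of the same enzyme showed smaller differences. Idh3b had 464, 411 and 429 CPM in culture WT and 545, 469 and 513 CPM in KO, and Idh3g had 332, 281 and 286 CPM in WT and 401, 341 and 338 CPM in KO. For both genes every KO library lay above every WT library. Neither passed the threshold, with log2 fold changes of 0.23 (SE 0.11, adjusted p = 0.147) and 0.26 (SE 0.11, adjusted p = 0.104).

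Cs, Mdh2 and Ogdh overlapped between the cultures. Cs had 618, 546 and 508 CPM in WT and 542, 537 and 588 CPM in KO, and the 95% interval of its log2 fold change was -0.24 to 0.23. Mdh2 had 702, 609 and 568 CPM in WT and 758, 601 and 646 CPM in KO, with an interval of -0.15 to 0.34. Ogdh had 335, 317 and 265 CPM in WT and 291, 297 and 372 CPM in KO, with an interval of -0.18 to 0.31. These intervals leave out differences as large as the falls of the same genes in tissue.

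Cell type markers also moved in culture, where 8.94% of all genes tested were higher and 10.6% lower. Of 12 adipocyte markers tested 5 rose, among them Fabp4 (0.89, adjusted p = 6.99e-05) and Pparg (0.52, adjusted p = 0.00317), and 2 fell, Cebpa (-0.36, adjusted p = 0.0392) and Plin4 (-0.31, adjusted p = 0.0488). With the trend of length and GC content removed, 8 were higher and none lower, Cebpa being at -0.12 (adjusted p = 0.300) and Plin4 at 0.02. Brown or beige markers rose in 3 of 6 cases (median 0.63), with Cidea (2.09, adjusted p = 2.69e-06) and Cox8b (0.90, adjusted p = 0.000661). Macrophage markers fell in 3 of 10 cases, including Cd68 (-0.71, adjusted p = 0.000355) and Csf1r (-0.61, adjusted p = 0.00120), and summed to 2813 to 3091 CPM in WT and 2070.4 to 2433 CPM in KO. Fibroblast markers fell in 3 of 9 cases, with Col1a1 (-0.71, adjusted p = 0.00155) and Pdgfrb (-0.50, adjusted p = 0.00541), and rose in 1, Lum (0.43, adjusted p = 0.0242). Library size scaling made 5 of the 9 lower, and without the length and GC trend 2 were lower and none higher, with Pdgfrb (adjusted p = 0.0830) and Lum (adjusted p = 0.171) no longer called. Endothelial markers fell in 2 of 7 cases, Cdh5 (-0.64, adjusted p = 0.000869) and Kdr (-0.42, adjusted p = 0.0290, and 0.137 without that trend). Of 3 muscle markers that could be tested 1 rose, Mb (1.09, adjusted p = 0.000643), the 10 muscle markers summed to at most 20.2 CPM in any culture, and the epithelial markers were at or near 0. The part of these markers in the rise of the cycle genes was not tested.

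The knockout effect differed between tissue and culture for all 9 genes. Of the 14463 genes tested 48.8% passed, 21.1% with a lower effect in tissue and 27.7% with a higher one. Whether the deletion was equally complete in tissue and culture was not tested. The difference of the log2 fold changes, tissue minus culture, was largest for Idh3g (-2.54, SE 0.29, adjusted p = 3.2e-05) and Suclg1 (-2.39, SE 0.27, adjusted p = 3.08e-05). It was -2.19 for Fh1, -1.96 for Ogdh, -1.95 for Idh3b, -1.61 for Mdh2 and -1.45 for Cs (adjusted p from 8.62e-05 to 0.00150). It was smallest for Sucla2 (-1.17, SE 0.41, adjusted p = 0.0304) and Idh3a (-1.09, SE 0.36, adjusted p = 0.0242), the genes that did not pass in tissue and passed in culture. For these 2 genes the difference missed the threshold with library size scaling (adjusted p = 0.277 and 0.301). It also missed it without WAT WT replicate 1, WAT cKO replicate 1, culture WT replicate 1 or 2, or culture KO replicate 1 (adjusted p from 0.0532 to 0.0768), and for Sucla2 without culture KO replicate 3 (adjusted p = 0.0657).

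**Figure D2:**
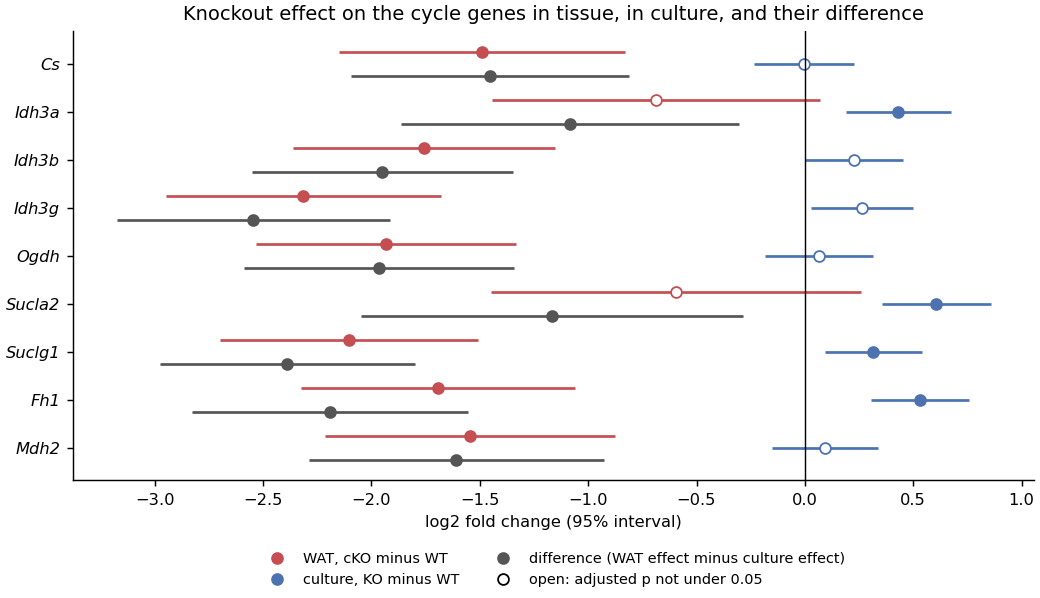
Log2 fold changes of the 9 cycle genes with 95% intervals, for WAT cKO minus WT (red), culture KO minus WT (blue) and the difference of both effects (grey), where open points did not pass an adjusted p of 0.05. Of the tissue effects 7 lie between -1.49 and -2.31, the culture effects lie between -0.0045 (Cs) and 0.61 (Sucla2), and the 9 differences are all below 0.

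Ratios of reads per kilobase between genes of the same library do not depend on how libraries are scaled, and they are given as a description. They are not corrected for length or GC content. The subunits of isocitrate dehydrogenase shifted against each other in tissue. Idh3a over Idh3g was 0.245, 0.182 and 0.263 in WAT WT and 0.639, 0.781 and 0.630 in WAT cKO, a ratio 2.97-fold higher in cKO with no overlap. Idh3a over Idh3b was 0.317 ± 0.0391 in WT and 0.642 ± 0.0874 in cKO (SD, n = 3), and Idh3b over Idh3g was 0.723 ± 0.0582 and 1.07 ± 0.0129. After correction for a trend with length and GC content, log2 fold changes in tissue were -1.004 for Idh3a, -1.57 for Idh3b and -2.08 for Idh3g, closer together than the uncorrected values. In culture all 3 of these ratios overlapped between WT and KO.

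The subunits of succinyl-CoA ligase also differed in their uncorrected ratios in tissue. Sucla2 over Suclg1 was 0.362, 0.253 and 0.260 in WAT WT and 0.846, 0.928 and 0.635 in WAT cKO. The lowest cKO library was well above the highest WT library. Suclg2 over Suclg1 was 0.116 ± 0.0127 in WT and 0.202 ± 0.0317 in cKO, also without overlap. With the length and GC trend removed, Suclg2 and Suclg1 had nearly equal log2 fold changes, -1.98 and -1.99. Sucla2 had -1.23 and still fell by less than Suclg1, though by a smaller margin than in the uncorrected fit. In culture both ratios overlapped, while Sucla2 over Suclg2 was 4.26 ± 0.319 in WT and 5.50 ± 0.461 in KO, every KO library higher.

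In the alpha-ketoglutarate dehydrogenase complex Ogdh over Dlst, the succinyl-transferring component, was 1.495 ± 0.0877 in WAT WT and 0.916 ± 0.0395 in WAT cKO, every cKO library lower. Ogdh over Dld, the lipoamide dehydrogenase shared with other complexes, was 6.29 ± 1.54 and 1.74 ± 0.189. Without the length and GC trend the log2 fold changes were -1.99 for Ogdh, -1.23 for Dlst and -0.95 for Dld. Both ratios overlapped in culture.

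Fh1 over Cs, the entry enzyme, was 0.292 ± 0.0170 in WAT WT and 0.254 ± 0.0121 in cKO, all cKO libraries lower, and 0.500 ± 0.0307 in culture WT and 0.722 ± 0.0490 in KO, all KO libraries higher. Idh3a over Cs was higher in every knockout library in both, 1.70-fold in tissue and 1.34-fold in culture, and Mdh2 over Cs overlapped in both. Mdh2 over the cytosolic Mdh1 was 1.13 ± 0.176 in culture WT and 0.669 ± 0.0664 in KO, with no overlap, and overlapped in tissue.

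**Figure D3:**
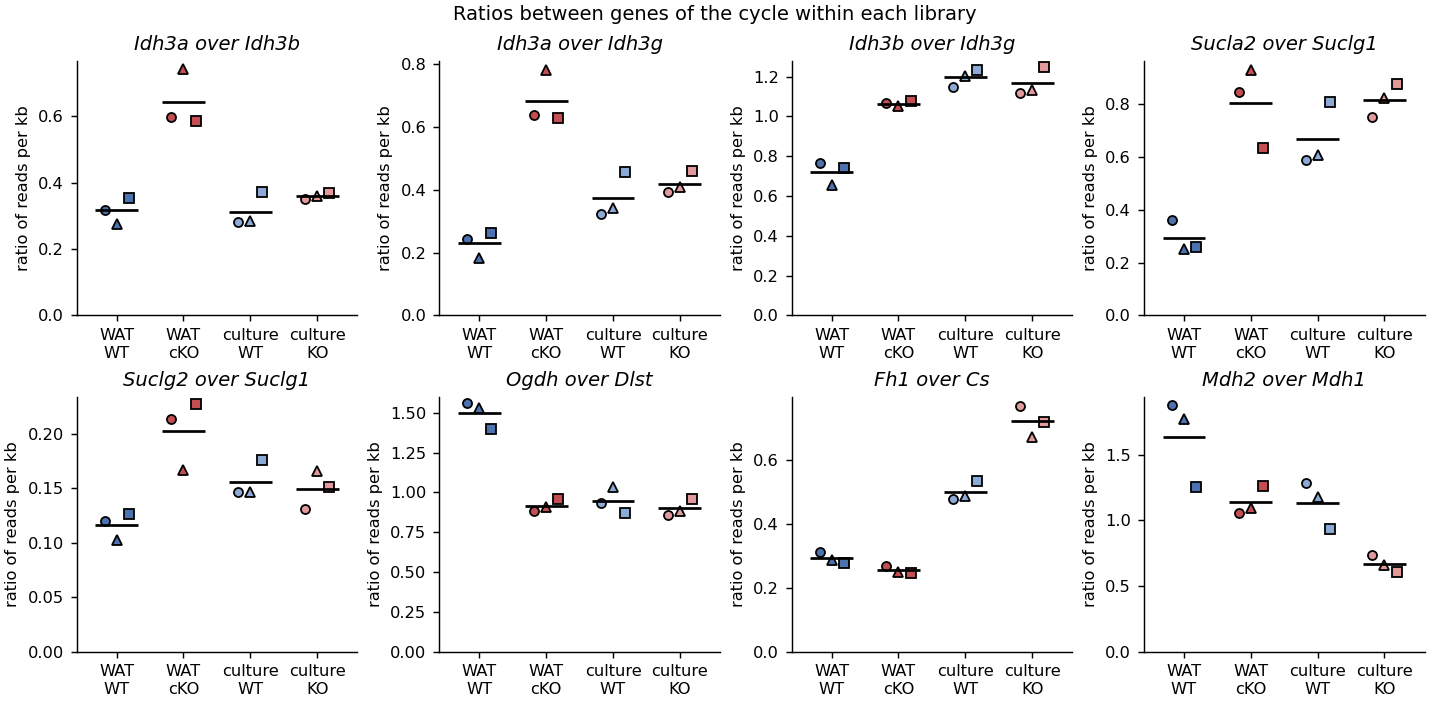
Ratios of reads per kilobase between 8 pairs of genes within each of the 12 libraries, with circles, triangles and squares for replicates 1, 2 and 3 and lines for group means. The pairs are of cycle genes, except that Mdh2 is set over the cytosolic Mdh1. Idh3a over Idh3b and over Idh3g and Sucla2 over Suclg1 are higher in every WAT cKO library than in any WAT WT library, and Fh1 over Cs is higher in every culture KO library than in any culture WT library.

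Further subunits of the cycle's enzymes were mostly lower in tissue as well. The subunits of succinate dehydrogenase, which links the cycle to the respiratory chain, fell by 2.02 (Sdha), 1.83 (Sdhb), 1.43 (Sdhc) and 1.26 (Sdhd), with adjusted p from 0.00136 to 0.00219. Suclg2 fell by 1.35 (SE 0.16, adjusted p = 0.000876) and Dlst by 1.21 (SE 0.24, adjusted p = 0.00498), which was not called with library size scaling (adjusted p = 0.0614). Dld, at 193, 124 and 139 CPM in WAT WT and 126, 206 and 97.7 CPM in WAT cKO, overlapped between groups and had a log2 fold change of -0.08 (adjusted p = 0.829). With library size scaling its value turned to 0.58 (adjusted p = 0.1101), where the median over all genes tested was 0.80. In culture Dld rose by 0.52 (SE 0.12, adjusted p = 0.00584) and Sdhb by 0.40 (SE 0.12, adjusted p = 0.0207). Another 5 did not pass, with log2 fold changes of 0.07 (Sdhc), 0.12 (Sdhd), 0.13 (Dlst), 0.25 (Suclg2) and 0.26 (Sdha).

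Genes of pyruvate entry, a list that holds carrier and enzyme subunits together with activating and inactivating regulators, were lower in tissue in 10 of 13 cases and higher in 2 (median -1.41). Of all genes tested 24.2% were lower and 28.2% higher. With library size scaling 5 of the 13 were lower and 2 higher (median -0.74, and 0.80 over all genes tested). Mpc1, a subunit of the mitochondrial pyruvate carrier, fell by 2.49 (SE 0.32, adjusted p = 0.00118), and Pdhb, a subunit of pyruvate dehydrogenase, by 2.00 (SE 0.32, adjusted p = 0.00248). The regulators Pdp1, a phosphatase that activates that enzyme, and Pdk3, a kinase that inactivates it, rose by 1.49 (adjusted p = 0.00743) and 1.42 (adjusted p = 0.00609), though Pdp1 was at 0.42 without the length and GC trend (adjusted p = 0.239). The inactivating kinases Pdk1 and Pdk2 were among the 10 lower genes. In culture 6 of the 13 rose and 1 fell (median 0.22), with Pdhb at 0.50 (adjusted p = 0.00363), Mpc1 at 0.46 (adjusted p = 0.00571) and Pdk4, another inactivating kinase, at -0.45 (adjusted p = 0.0259). Of all genes tested in culture 8.94% were higher and 10.6% lower, and the share of the list that fell was near the latter.

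Isoforms that work beside the cycle, in the cytosol or in mitochondria, were lower in tissue in 7 of 9 cases and higher in 1 (median -1.58). Of all genes tested 24.2% were lower and 28.2% higher. With library size scaling 5 of the isoforms were lower and 1 higher (median -0.90, and 0.80 over all genes tested). Acly, which splits exported citrate, fell by 4.63 (SE 0.45, adjusted p = 0.000633) and Me1, the cytosolic malic enzyme, by 3.62 (SE 0.44, adjusted p = 0.000977), while the mitochondrial malic enzyme Me2 rose by 0.88 (SE 0.18, adjusted p = 0.00571). In culture 3 of 10 fell and 1 rose (median -0.18), with Idh1, the cytosolic NADP-dependent isocitrate dehydrogenase, at -0.65 (SE 0.12, adjusted p = 0.00108) and Acly at -0.45 (SE 0.12, adjusted p = 0.0107, and 0.0512 without the length and GC trend). Of all genes tested in culture 10.6% were lower and 8.94% higher, and the share of the isoforms that rose was near the latter. Mdh1, cytosolic malate dehydrogenase, had 797, 754 and 883 CPM in culture WT and 1494, 1327.5 and 1551 CPM in KO. No library overlapped, and Mdh1 rose by 0.85 (SE 0.12, adjusted p = 3.27e-05).

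Genes that refill or drain the cycle and carry its intermediates were lower in tissue in 8 of 14 cases and higher in 4 (median -0.66, and 0.01 with library size scaling, when 4 were lower and 5 higher). The share that was higher lay near the 28.2% over all genes tested, where 24.2% were lower. The median over all genes tested was 0.80 with library size scaling. Slc25a1, the citrate carrier, fell by 4.70 (SE 0.40, adjusted p = 0.00052) and Pcx by 3.25 (SE 0.46, adjusted p = 0.00158). Got1, the cytosolic aspartate aminotransferase, rose by 1.66 (SE 0.20, adjusted p = 0.000968). In culture 1 of 14 fell, Slc25a1 (-0.47, SE 0.11, adjusted p = 0.00598), and none rose (median -0.02), while 3 were higher without the length and GC trend. Over all genes tested in culture 10.6% were lower and 8.94% higher.

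Factors that build the enzymes were lower in tissue in 7 of 9 cases and higher in none (median -0.85). Of all genes tested 24.2% were lower and 28.2% higher. With library size scaling 3 of the 9 were lower (median -0.18, and 0.80 over all genes tested). Lipt1, a lipoyl transferase, fell by 1.65 (SE 0.19, adjusted p = 0.000876) and Mrps36, a protein that in mammals links the components of the alpha-ketoglutarate dehydrogenase complex, by 1.35 (SE 0.22, adjusted p = 0.00268). In culture 1 of 9 rose, Lias, the lipoyl synthase (0.48, SE 0.11, adjusted p = 0.00545), and none fell (median 0.22). The share that rose was near the 8.94% over all genes tested.

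General mitochondrial genes came next. In tissue import factors, chaperones and pores were lower in 12 of 17 cases and higher in 1 (median -0.55, and 0.12 with library size scaling, when 3 were lower and 2 higher). Of the 16293 genes tested 24.2% were lower and 28.2% higher (median 0.12, and 0.80 with library size scaling). Clpp, a matrix protease, fell by 1.60 (SE 0.23, adjusted p = 0.00159) and Phb, a prohibitin of the inner membrane, by 1.21 (SE 0.17, adjusted p = 0.00170), while Tomm70a, an import receptor, rose by 0.59 (SE 0.15, adjusted p = 0.0143), a value that turned to -0.50 with the trend of length and GC content removed. In culture 7 of 17 rose and none fell (median 0.30), with Hspe1, the partner of the matrix chaperonin, at 0.61 (SE 0.11, adjusted p = 0.000500) and Timm44 of the import motor at 0.56 (SE 0.11, adjusted p = 0.00177). Of all genes tested in culture 8.94% were higher and 10.6% lower. Of the regulators of mitochondrial biogenesis 3 of 13 were higher and 3 lower in tissue (median 0.06), shares near those of all genes tested. With library size scaling 6 were higher and 1 lower (median 0.73), where 8838 of the 16293 genes tested were higher and 1427 lower (median 0.80). Without the length and GC trend 1 was higher and 4 lower (median -0.52, and -0.11 over all genes tested). Esrra, an estrogen-related receptor that binds genes of the cycle, fell by 1.03 (SE 0.12, adjusted p = 0.000950) and Polrmt, the mitochondrial RNA polymerase, by 0.87 (SE 0.20, adjusted p = 0.00991, and 0.390 with library size scaling). Pprc1, a coactivator, rose by 0.98 (SE 0.18, adjusted p = 0.00378) and Gabpa, the DNA-binding subunit of GABP, by 0.94 (SE 0.24, adjusted p = 0.0154), which turned to -0.04 with that trend removed. In culture 3 of 12 regulators rose and 1 fell (median 0.04), the share that fell being near the 10.6% over all genes tested, where 8.94% were higher. Tfb2m (0.72, SE 0.13, adjusted p = 0.000525) and Tfb1m (0.48, SE 0.16, adjusted p = 0.0398, and 0.0660 with library size scaling) rose, and Pprc1 fell (-0.45, SE 0.12, adjusted p = 0.0107). Without the length and GC trend Tfb1m (adjusted p = 0.238) and Pprc1 (adjusted p = 0.244) were not called.

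**Figure D4:**
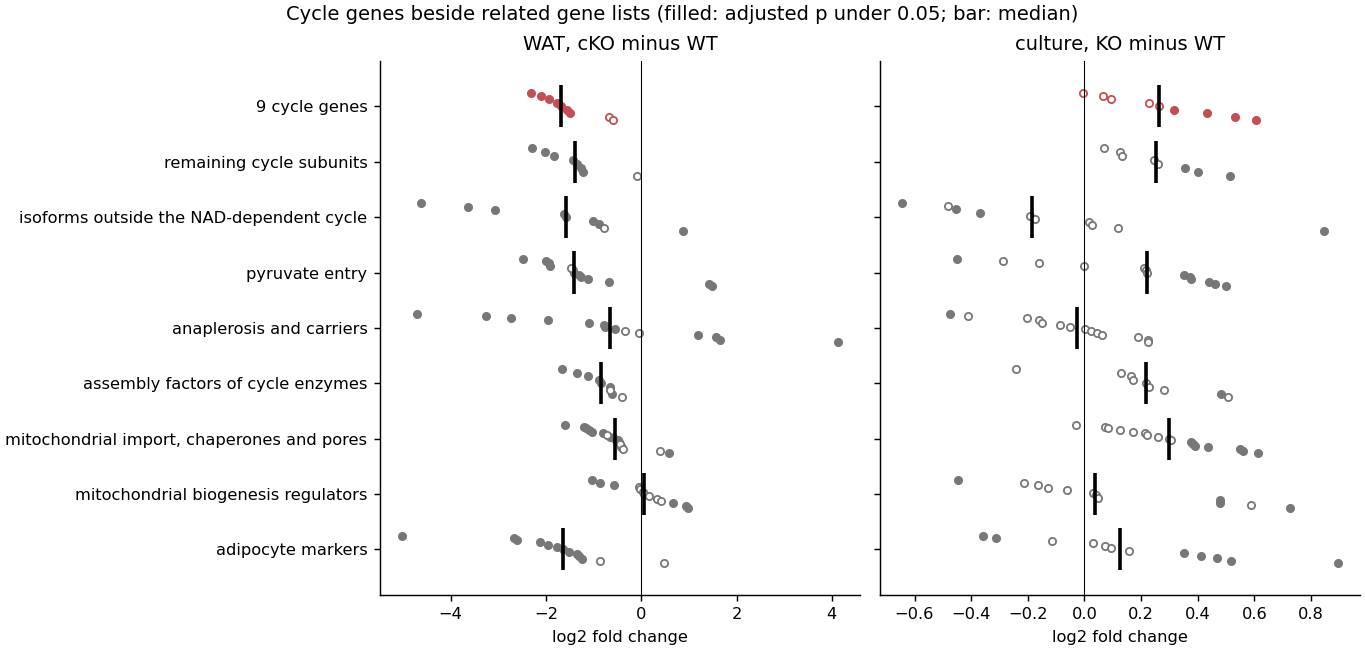
Log2 fold changes of every tested gene in the 9 cycle genes, the 7 pathway lists and the adipocyte markers, in WAT (left) and culture (right, on a narrower scale), filled where the adjusted p was under 0.05, with a bar at each list's median. The cycle genes, the remaining cycle subunits, pyruvate entry and adipocyte markers have medians of -1.69, -1.39, -1.41 and -1.65 in WAT, and the first 3 of these lie at 0.26, 0.25 and 0.22 in culture.

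The 9 genes also differed in base composition, and the relation to their tissue effects was not tested. Sucla2 and Idh3a, which did not pass in tissue, had the lowest GC content of the 9 longest coding transcripts, 43.2% and 46.9%, followed by Fh1 at 47.7%, and the others lay between 50.2% (Suclg1) and 55.4% (Mdh2). Dld, the cycle subunit outside the 9 that did not pass, had 40.6%. Suclg2, at 44.4%, fell and passed. Fh1, at 47.7%, and Mdh2, at 55.4%, had close log2 fold changes of -1.69 (SE 0.27) and -1.55 (SE 0.29). With a per-library trend of length and GC content removed, Sucla2 fell by 1.23 (adjusted p = 0.0239), Idh3a by 1.004 (adjusted p = 0.0351) and Dld by 0.95 (adjusted p = 0.0242), and all 9 cycle genes were lower. The median over the 9 was then -1.57 and that over all genes -0.11. Length and GC values were at hand for 85.8% of the genes tested in WAT.

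**Figure D5:**
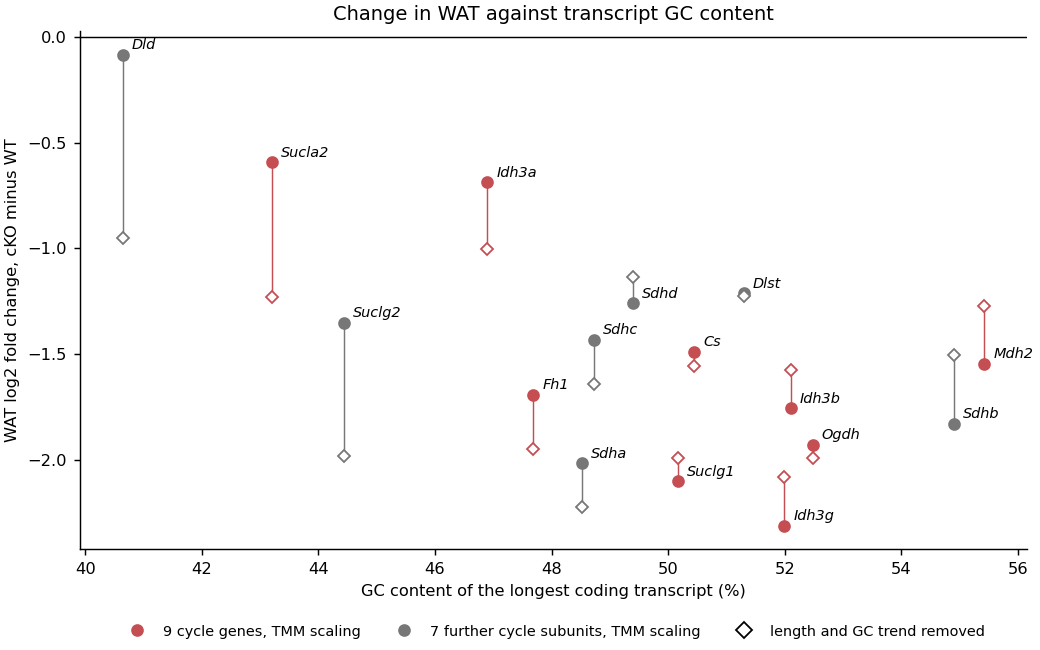
WAT log2 fold change, cKO minus WT, against the GC content of the longest coding transcript for the 9 cycle genes (red) and 7 further cycle subunits (grey), with filled circles for TMM scaling and open diamonds for the fit with the length and GC trend removed. Dld, Sucla2 and Idh3a move from -0.08, -0.59 and -0.69 to -0.95, -1.23 and -1.004, and no diamond lies above 0.

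The genes outside the cycle list whose levels over the 12 libraries lay nearest to the median profile of the 9 were sought by root mean square distance of mean-centred log2 CPM with a pseudocount of 1, among 9582 genes. Among the 5 nearest were Ndufb11 (0.0994), Cox4i1 (0.103), Hadha (0.111) and Sdhb (0.113), where the median gene lay at 0.813. Ndufb11 encodes a subunit of respiratory complex I, Cox4i1 a subunit of cytochrome c oxidase and Hadha an enzyme of mitochondrial fatty acid oxidation. Their log2 fold changes in WAT were -1.66, -1.64, -1.52 and -1.83 in that order, and in culture 0.37, 0.30, 0.28 and 0.40. Within the list Mdh2 lay nearest to the median profile (0.130) and Ogdh farthest from it (0.593). The profile combines tissue and culture, and the points share their libraries and scaling, so the distance is a description.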

How the data were processed

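Per the labels' protocols, RNA was isolated with TRIzol and sequenced after library preparation with an MGIEasy mRNA kit. Gene-level read counts without normalization were deposited by the authors, in 1 table for WAT and 1 for the cultures. HISAT2 2.1.0, cutadapt 1.11, FastQC 0.11.2 and GRCm38 are listed, per the submitters' processing notes. Not given in the sources used here were the counting tool, annotation and strand setting, so reads shared by near-identical copies, by overlapping genes or by antisense pairs are uncertain. The cycle genes and all lists, tests and alternatives were chosen with earlier results of these data known.

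Each comparison was fitted over all genes of its 6 libraries in R 4.3.3 (edgeR 4.0.16, quasi-likelihood test). Low counts were filtered with filterByExpr (minimum count 10), and libraries were scaled by TMM. The difference of effects was an interaction over 12 libraries and the genes in both tables. Genes with a Benjamini-Hochberg adjusted p under 0.05 were called, and an adjusted p is edgeR's where no tool is given. SEs were obtained from the F statistic, as size over its square root. CPM levels use TMM-scaled library sizes, and levels per kb, scaled jointly over both tables, use the longest GENCODE M21 coding transcript. RefSeq on GRCm38 gave the coordinates. No 2 libraries of a group were duplicates (chi-square of their counts, per degree of freedom, 4.81 to 202). The scripts were tested on simulated counts. Alternatives were RLE factors, library size only, no filter, a replicate block, DESeq2 1.42.0, limma voom 3.58.1, removal of a length and GC trend, summed copies, 1 fit over 4 groups, thinning, removal of mitochondrial genes and leaving out each library. Beside the 9 genes, Fam50a and all other cycle subunits, each list named the 2 largest rises and 2 largest falls that passed and averaged 5 CPM or more, or the smallest p where none passed. Ssr4 and Dio2 were named after their values were seen. A few genes taken by this rule are not reported here.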

Additional observations from a re-analysis of the deposited data

Results flagged for a closer look

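The knockout effect differed between tissue and culture, by a test of the difference itself, in each of the 9 cycle genes. The log2 fold change in WAT minus that in culture was -2.54 for Idh3g, -2.39 for Suclg1, -2.19 for Fh1, -1.96 for Ogdh, -1.95 for Idh3b, -1.61 for Mdh2, -1.45 for Cs, -1.17 for Sucla2 and -1.09 for Idh3a. Tissue and culture also differ in age, table and cell composition, which cannot be told apart here. Fam50a had a log2 fold change of -0.60 in WAT, which passed, and of -0.26 in culture, which did not. Whether the deletion was equally complete in both was not tested.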

How the results depend on the processing

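No cycle gene was called higher in WAT, lower in culture or with a higher effect in tissue under any alternative run. In WAT 6 to 9 of the 9 genes were lower, and in the difference 7 to 9. With library size only, 8838 genes were higher and 1427 lower in WAT, and 7331 and 1198 in the difference. Removing the length and GC trend left 2620 higher in WAT and 2505 in the difference. Leaving out WAT WT replicate 3 and WAT cKO replicate 1 together left 1948 higher and 1764 lower. In culture the replicate block gave 1816 higher and 2008 lower, 1 of them Idh3g (0.26, adjusted p = 0.0239), but the labels tie the numbers to no shared source. Same-numbered libraries had correlated deviations of 0.184, 0.0324 and 0.238 in culture, where 1 of the 3 was near 0 and not every library correlated best with its own number, and of -0.326, 0.0268 and -0.232 in WAT. The numbers were therefore not used as pairs. The fit over all 4 groups gave 58 higher and 88 lower in culture and 0 cycle genes higher. The cause of these changes was not tested.

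Leaving out 1 library gave 3382 to 4375 genes higher and 3074 to 4220 lower in WAT, 399 to 1715 and 498 to 1665 in culture with 2 to 4 cycle genes higher, and 3461 to 4317 and 2644 to 3265 in the difference. Values near 0 changed sign. Sucla2 in WAT was 0.073 with library size only. Cs in culture was 0.0038 with RLE factors, 0.016 without a filter, 0.0039 with DESeq2, 0.035 with the length and GC trend removed, 0.0030 in the fit over all groups, 0.020 after thinning and 0.0082 without mitochondrial genes. With 1 culture library left out, Cs ranged from -0.060 to 0.083, Ogdh from -0.056 to 0.14 and Mdh2 from -0.0056 to 0.19. Each of the 9 genes had at least 2105 counts in every library, and each group had 3 libraries.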
